A study of Mus musculus with 46 samples.

Results

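H3.3-free promoters are described here, that is, transcription start sites (TSSs) that carried H3K4me3 without a called peak of the histone variant H3.3. Trimethylation of histone H3 at lysine 4 (H3K4me3) marks the promoters of active and poised genes, whereas H3.3 is put into chromatin outside DNA replication by dedicated chaperones and is best known from active promoters, enhancers and gene bodies. Trimethylation at lysine 36 (H3K36me3) is laid down behind elongating RNA polymerase II and marks the bodies of transcribed genes. A TSS was a distinct start of a protein-coding transcript in GENCODE vM1 on mouse build mm9, and its promoter reached 1 kb to either side. Members were chosen by peaks: an H3K4me3 peak in all 7 H3K4me3 libraries and no H3.3 peak in the D0, D6T-, iPSCs or ESD3 library. Of 46015 TSSs, 19717 had H3K4me3 in all 7 libraries and 1978 of these (10.0%) were members. They lay in 1049 separate stretches and belonged to 1126 genes. In 919 of these genes no annotated TSS had H3.3 in the 4 libraries, and these are called H3.3-free genes. The other 207 genes had H3.3 at another of their TSSs. For comparison, 5179 TSSs carried both H3K4me3 in all 7 libraries and H3.3 in all 4, and 2646 genes with such a TSS are called H3.3-bound. Among the 9865 genes with H3K4me3 in all 7 libraries, 9.32% were H3.3-free and 26.8% H3.3-bound; these shares follow from the rule.

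The cells came from mouse embryonic fibroblasts (MEFs) of embryos carrying an IRES-EGFP cassette at the Oct4 gene. For reprogramming to induced pluripotent stem cells (iPSCs), they received retroviral Oct4, Sox2, Klf4 and c-Myc and were profiled on day 0 (D0), on day 3 (D3), and after sorting for the fibroblast surface protein Thy-1 on days 6 and 9 (D6T-, D9T-, D6T+, D9T+) or for the surface antigen SSEA-1 on days 12 and 16 (D12S+, D16S+, D12S-, D16S-). ESD3 is an established mouse embryonic stem cell line that received no factors. H3K4me3 and H3K36me3 were measured in D0, D3, D6T-, D9T-, D12S+, D16S+ and iPSCs, and H3.3 in all 12 populations. For transdifferentiation to hematopoietic cells, MEFs received retroviral Scl, Lmo2, Bmi1 and Runx1, and H3.3 was measured on day 0 (MEF), on day 4 (D4) and in cells with (cKit+) or without (cKit-) the receptor cKit. In the methods of the study these fibroblasts were first cleared of hematopoietic cells and then kept with OP9 stromal cells. Fibroblast genes matched the D0 label, with an H3K4me3 promoter peak at 8 of 8 checked markers, but 7 of 8 also had one in iPSCs. Pluripotency genes matched the iPSCs label, with 8 of 8 markers against 2 of 8 in D0. Each population had 1 library per mark, so no value has a replicate check.

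Peaks depend on depth and enrichment. The 16 H3.3 libraries held 18.7 (D16S+) to 91.8 M tags (cKit+), with 25637 (cKit-) to 108179 (D4) peaks and 1.65% (cKit+) to 37.2% (D4) of tags in peaks. The 4 H3.3 libraries of the rule held 21.6 to 41.2 M tags and 52506 to 89727 peaks. The H3K4me3 libraries had 3.71% (D16S+) to 34.8% (D6T-) of tags in peaks, and the H3K36me3 libraries 1.07% (D12S+) to 42.4% (D9T-). The D6T- H3K36me3 library stood apart by an estimated fragment length of 444 bp. The score of a peak is its tag count per 10 M tags in the library, not divided by its length. The lowest score that was called in the H3.3 libraries of the rule was 4.37 (iPSCs) to 5.09 (ESD3). A called H3.3 peak was also at least 2-fold over its input. H3.3-free therefore means that no peak was called near the TSS, not that H3.3 was absent.

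The rule is a cut through a continuous distribution. Of the TSSs with H3K4me3 in all 7 libraries, 2986 (15.1%) had H3.3 in exactly 1 of the 4 libraries, 4028 in 2, 5546 in 3 and 5179 in all 4. Among the 2986 TSSs just outside the rule, the single library with H3.3 was iPSCs for 1619 (54.2%), D0 for 693, D6T- for 541 and ESD3 for 133. Those with the highest lowest H3K4me3 score were the neighbouring starts of Alkbh1, a DNA and RNA demethylase gene, 1810035L17Rik and 2700073G19Rik on chromosome 12, with a score of 132 and an H3.3 score of 5.95 in iPSCs. Just inside the rule, 609 member TSSs (30.8%) had an H3.3 peak of one of the 4 libraries 1 to 2 kb away, and the closest lay at 1002 bp. The median distance to the nearest such peak was 3.70 kb, and for 139 members (7.03%) it exceeded 50 kb. Members thus ranged from promoters with H3.3 a little way off to promoters in long stretches without any.

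Sequences upstream of 6 H3.3-free starts are shown because these starts have the highest lowest H3K4me3 score over the 7 libraries among H3.3-free genes and can be compared by their CpG content and by the motifs described further on. The letters were read from the NCBIM37 (mm9) assembly 5′ to 3′ on the strand of the gene, and end at the base before the TSS or at the first annotated exon. Capitals mark matches of the searched motifs. Ddx3x, an X-linked RNA helicase gene, lies on the plus strand and the 200 bases before its start are at chrX:12857896-12858095, with a GC box match. Orc3, a subunit of the origin recognition complex, and Rars2, the mitochondrial arginine tRNA synthetase, start head to head, and only 12 bases lie between them at chr4:34562194-34562205 (shown on the plus strand, the strand of Rars2). Cnpy4, a canopy family gene, has 33 bases between its start and the opposite gene Taf6 at chr5:138628680-138628712 (plus strand), with an NRF1 match. Tdp2, a DNA repair phosphodiesterase, and Acot13, an acyl-CoA thioesterase, share the 161 bases at chr13:24923387-24923547 (plus strand, the strand of Tdp2), with a GC box and an ETS match. Tgif1, a homeobox repressor gene, lies on the minus strand and is given for contrast with the 200 bases at chr17:71202887-71203086. It is an H3.3-bound start with a lowest H3K4me3 score of 184, where the highest in this class was 198.
Ddx3x: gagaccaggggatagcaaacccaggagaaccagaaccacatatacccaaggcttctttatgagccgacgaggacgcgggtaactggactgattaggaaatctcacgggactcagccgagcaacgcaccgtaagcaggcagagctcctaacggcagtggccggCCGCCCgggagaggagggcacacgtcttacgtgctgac
Rars2 and Orc3: agaggcgacttc
Cnpy4: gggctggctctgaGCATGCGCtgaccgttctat
Tdp2 and Acot13: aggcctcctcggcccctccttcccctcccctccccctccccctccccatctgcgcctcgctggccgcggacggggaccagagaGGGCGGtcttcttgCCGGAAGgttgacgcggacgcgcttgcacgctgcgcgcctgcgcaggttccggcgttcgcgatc
Tgif1: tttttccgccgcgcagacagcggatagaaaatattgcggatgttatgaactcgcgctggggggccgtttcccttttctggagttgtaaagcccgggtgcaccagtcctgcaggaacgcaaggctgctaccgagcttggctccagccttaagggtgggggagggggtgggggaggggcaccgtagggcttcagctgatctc
The GC share was 59.0% upstream of Ddx3x with 14 CpG dinucleotides, 73.3% with 20 between Tdp2 and Acot13, and 60.0% with 12 upstream of Tgif1. CpG-rich sequence was therefore seen in both classes.

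To see whether the absence of H3.3 held outside the libraries that chose the members, promoter H3.3 was counted in 8 reprogramming libraries the rule did not use, with 1 TSS per gene. In every one of them a small minority of H3.3-free genes and a large majority of H3.3-bound genes had a peak. Among H3.3-free genes the share was 5.88% in D3 (81.4% of H3.3-bound genes and 52.0% of all genes with H3K4me3), 12.4% in D9T- (93.8% and 63.6%), 4.46% in D12S+ (81.9% and 47.9%) and 4.79% in D16S+ (70.9% and 40.2%). In the fractions sorted off the route to iPSCs it was 3.59% in D6T+ (78.5% of H3.3-bound and 45.2% of all genes), 5.44% in D9T+ (87.6% and 54.2%), 19.5% in D12S- (97.8% and 75.4%) and 13.5% in D16S- (90.8% and 62.7%). The H3.3-free share was highest in the library with the highest share over all genes, D12S-. The mean difference between H3.3-free and H3.3-bound genes was -76.6 percentage points, between -82.1 in D9T+ and -66.1 in D16S+, with 95% Newcombe intervals of -83.9 to -80.0 and -68.2 to -63.7. The sign was the same in 8 of 8 libraries (exact permutation test by sign flips of the library differences, two-sided, p = 0.00781, the smallest 8 libraries allow; 0.0156 after Benjamini-Hochberg adjustment over 4 tests). The libraries are stages of 1 time course measured over the same genes, so this p says only that the sign did not vary among libraries, and intervals cover counting error only. With H3.3 peaks kept only from 4-fold over input the mean difference was -45.5 points.

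**Figure D1:**
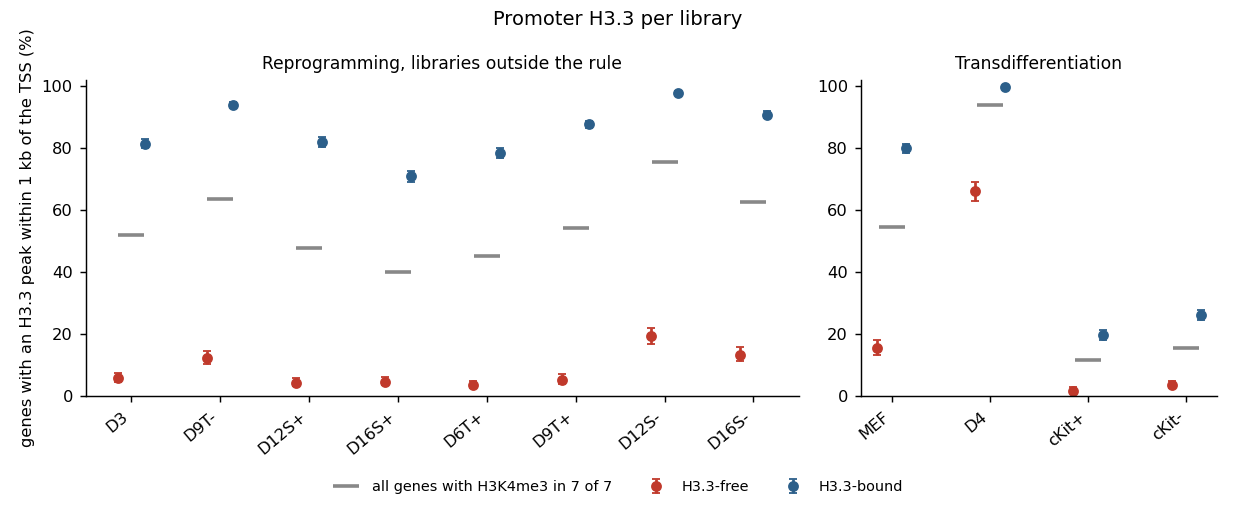
Share of genes with an H3.3 peak within 1 kb of the TSS, in percent, for each H3.3 library the rule did not use. Red points are the 919 H3.3-free genes and blue points the 2646 H3.3-bound genes, with 95% Wilson intervals of counting error, and grey dashes are all 9865 genes with H3K4me3 in all 7 libraries. Red points stay at or under 19.5% in the reprogramming libraries but reach 66.1% in D4.

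Gene by gene, 591 H3.3-free genes (64.3%) had no promoter peak in any of the 8 libraries, 245 had it in 1 or 2, and 13 (1.41%) in at least 5. No H3.3-free gene had it in all 8, against 1170 (44.2%) of the H3.3-bound genes. Where H3.3-free promoters did have a peak, it was short and its summed score, which grows with length, was low. The median summed score was 6.97 in D3 (21.2 for H3.3-bound genes with a peak) and 9.15 in D12S- (59.1), and the median length of the longest peak was 0.500 kb in D3 (1.40 kb for H3.3-bound) and 0.643 kb in D12S- (3.36 kb). The lowest score called in any H3.3 library lay between 3.54 and 5.59, and the fold over input was not lower throughout. The median of the highest fold was 4.32 for H3.3-free and 4.44 for H3.3-bound genes in D3, and 4.81 and 3.96 in D16S+.

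Around the TSS, H3.3 of H3.3-bound genes was highest upstream, with a dip at the TSS and a small rise after it. The mean share was 59.9% at 750 bp upstream and 40.4% at 500 bp downstream. Averaged over the 8 libraries, 55.8% of them had an H3.3 peak at the position 1 kb upstream, 36.6% at the TSS itself and 37.1% at 1 kb downstream. For H3.3-free genes these values were 2.57%, 1.61% and 2.07%, and 4.05% at 5 kb downstream, where 24.5% of H3.3-bound genes had a peak. H3K4me3 reached further downstream than upstream in both classes, with 24.4% of H3.3-free genes inside a peak 1 kb upstream and 66.4% at 1 kb downstream (means of 7 libraries). For H3.3-bound genes these values were 49.2% and 83.8%. At 2 kb downstream 14.6% of H3.3-free and 39.0% of H3.3-bound genes were still inside a peak.

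**Figure D2:**
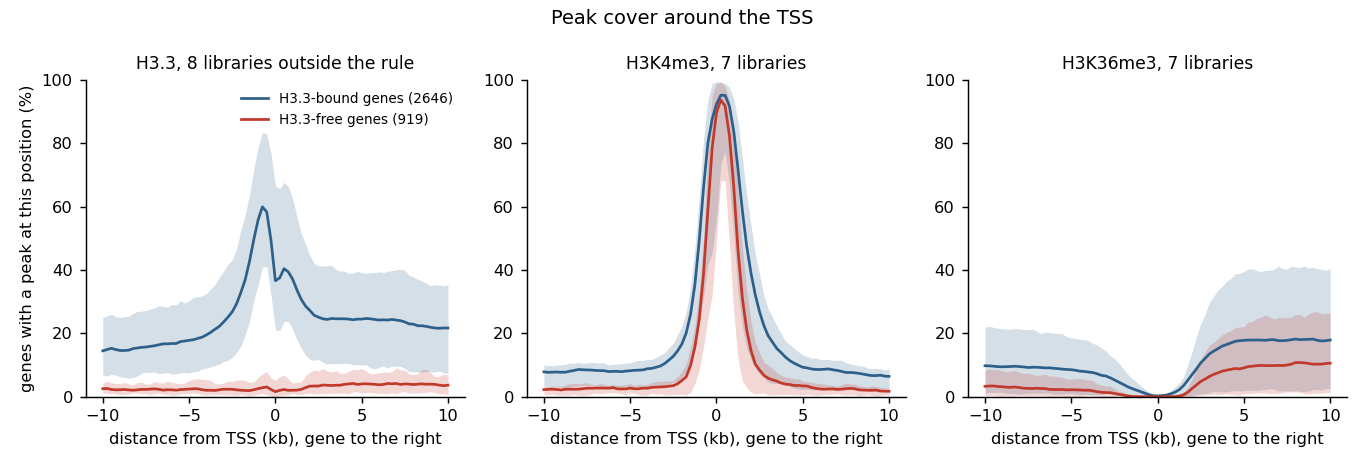
Share of genes, in percent, with a peak at each position from 10 kb upstream to 10 kb downstream of the TSS, for H3.3 in the 8 libraries outside the rule, H3K4me3 in 7 and H3K36me3 in 7. Lines are means over libraries and bands run from the lowest to the highest library. Blue H3.3-bound genes have H3.3 on both sides of the TSS with a dip at it (36.6%), red H3.3-free genes are at 1.61% there and 4.05% at 5 kb downstream, and H3K36me3 is near 0 at the TSS in both classes.

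In the transdifferentiation libraries, from the other conversion, H3.3-free promoters were again the less occupied ones, but D4 stood apart. The share was 15.7% in MEF (79.9% of H3.3-bound and 54.5% of all genes), 66.1% in D4 (99.8% and 93.8%), 1.85% in cKit+ (19.8% and 11.7%) and 3.70% in cKit- (26.2% and 15.6%). The mean difference was -34.6 points, negative in 4 of 4 libraries (exact permutation test, p = 0.125, the smallest that 4 libraries allow). D4 had the most peaks of all H3.3 libraries, and its promoter peaks were long, with a median of 1.46 kb at the 607 H3.3-free genes with a peak and 6.23 kb at H3.3-bound genes. Without D4 the mean difference was -34.9 points. Over the 11 other libraries outside the rule, 489 H3.3-free genes (53.2%) had no promoter peak, and with D4 counted too, 228 (24.8%) had none in any of the 16 H3.3 libraries.

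The 10 H3.3-free genes with the highest lowest H3K4me3 score were Ddx3x, Orc3, Rars2, Cnpy4, Acot13, Tdp2, Txndc17, Ube3a, Mau2 and Sugp1, with lowest scores between 62.6 and 78.7. These were well above the median lowest score of autosomal H3.3-free genes, 14.9. For Ddx3x and Mau2 the lowest score was that of D16S+, the H3K4me3 library with the smallest share of tags in peaks (3.71%). Mau2, which loads cohesin onto DNA, and Sugp1, a splicing factor gene, start 79 bp apart on chromosome 8, and neither had a promoter H3.3 peak in any of the 16 libraries. The H3K4me3 score of the Mau2 promoter was 309 in D0, 304 by D3 and 424 by D6T-, then 246 for D9T-, 114 for D12S+ and 62.6 for D16S+, with 126 in iPSCs. Medians over all genes with H3K4me3 were 194, 159, 235, 154, 58.5, 24.7 and 69.5 in the same order. Scores of single genes, here and below, are not adjusted for library enrichment, and its part in their course was not tested. The body of Mau2 carried H3K36me3 in all 7 libraries, with summed scores of 273 in D0, 136 by D3 and 101 by D6T-, then 511 for D9T-, 8.92 for D12S+ and 16.7 for D16S+, with 29.3 in iPSCs. The H3K36me3 libraries had 42.4% of tags in peaks in D9T- and 1.07% in D12S+. H3.3 was nevertheless called in the body of Mau2 in 7 of the 8 libraries outside the rule, from 13.1 in D9T+ to 65.3 in D12S-, and not in D16S+.

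Ddx3x showed the same arrangement. Its promoter H3K4me3 score was 301 in D0, 254 by D3 and 456 by D6T-, then 357 for D9T-, 142 for D12S+ and 78.7 for D16S+, with 155 in iPSCs. The body H3.3 score was 90.5 in D3, 246 in D9T-, 118 in D12S+, 95.7 in D16S+, 166 for D6T+, 170 for D9T+, 249 for D12S- and 160 for D16S-, whereas at the promoter H3.3 was called only in D9T+ (10.0), D12S- (23.6), D16S- (6.34), MEF (9.32) and D4 (41.2). H3.3 in Ddx3x was thus found in the body in all 8 libraries outside the rule and at the promoter in 3 of them, with a lower score in each of the 3. These scores are sums not divided by length, and the gene of 13.1 kb is longer than the promoter window.

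Some members were near the rule in other libraries. The 6 H3.3-free genes with promoter H3.3 in the most of the 12 unused libraries were Snrk (10 of 12), Ube2e1 and Gbe1 (8 each), and Cldn6, Tceal8 and Ube3a (7 each). Snrk, a protein kinase gene, had promoter scores of 9.11 in D12S+, 7.20 in D16S+, 7.45 for D6T+, 17.8 for D9T+, 31.1 for D12S- and 14.4 for D16S-, with none called in D3 and D9T-. Gbe1, the glycogen branching enzyme, reached 52.3 in D12S- and was between 6.67 and 9.77 in the 5 other reprogramming libraries with a peak. For these genes the 4 libraries of the rule do not speak for the rest of the series.

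H3K4me3 itself was weaker at H3.3-free promoters, which is described and not tested because the rule used these peaks. The median summed score was 124 in D0 (226 for H3.3-bound genes), 100 by D3 (182), 138 by D6T- (276) and 90.6 by D9T- (180). It was lower later on, at 36.1 for D12S+ (70.4), 14.5 for D16S+ (28.8) and 41.3 for iPSCs (84.6). The ratio of the medians was between 0.488 (iPSCs) and 0.550 (D0 and D3). By quartile groups of the lowest H3K4me3 score, the H3.3-free share of genes was 18.7% in the lowest, 10.0% and 5.76% in the middle groups and 2.49% in the highest, and the H3.3-bound share went from 19.7% to 33.3%.

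To ask whether H3.3-free genes carried the mark of elongation, H3K36me3 was counted from 1 kb after the TSS to the transcript end, in the 892 H3.3-free and 2500 H3.3-bound genes with at least 1 kb of body. H3.3-free genes had H3K36me3 less often in every library. Their share was 58.1% in D0 (86.3% of H3.3-bound and 81.0% of all genes), 49.8% by D3 (79.0% and 74.5%), 40.2% by D6T- (72.4% and 66.8%) and 58.3% by D9T- (89.8% and 82.8%). It was 23.0% for D12S+ (44.9% and 41.7%), 28.4% for D16S+ (46.1% and 45.3%) and 30.9% for iPSCs (68.7% and 60.5%). The mean difference was -28.4 points, from -37.8 in iPSCs (95% Newcombe interval -41.2 to -34.2) to -17.7 in D16S+ (-21.2 to -14.1). It was negative in 7 of 7 libraries (exact permutation test, two-sided, p = 0.0156, the smallest that 7 libraries allow; 0.0208 after Benjamini-Hochberg adjustment).

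The difference varied with the H3K4me3 level. In the 2 middle quartile groups of summed H3K4me3 score, with 314 H3.3-free and 1263 H3.3-bound genes, the mean difference was -6.63 points (exact permutation test, p = 0.0312). There the shares were 82.8% and 88.5% in D0, 75.2% and 81.2% in D3, 68.8% and 74.5% in D6T-, and 83.4% and 92.8% in D9T-. In D12S+ they were 39.5% and 43.2%, with an interval of the difference from -9.66 to 2.39, and in D16S+ the sign turned, with 47.8% and 44.6% (-2.92 to 9.35). In iPSCs the difference remained at -19.0 points (-25.1 to -12.9), with 49.0% of H3.3-free and 68.1% of H3.3-bound genes. The lowest group, which held 538 of the 892 H3.3-free genes, had mean shares over the 7 libraries of 25.7% and 43.0%. With H3.3 peaks kept only from 4-fold over input, the difference over all genes was -8.18 points, over the window from 1 to 5 kb after the TSS -13.5 points, and as a share of covered base pairs -11.1 points. It was -18.4 points with equal numbers of top H3.3 peaks, -18.4 without iPSCs in the rule and -15.1 with stronger H3K4me3 peaks only. Without D6T- and D12S+, which stood apart by fragment length and by few tags in peaks, it was -28.9 points with p = 0.0625, the smallest an exact test of 5 libraries allows.

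**Figure D3:**
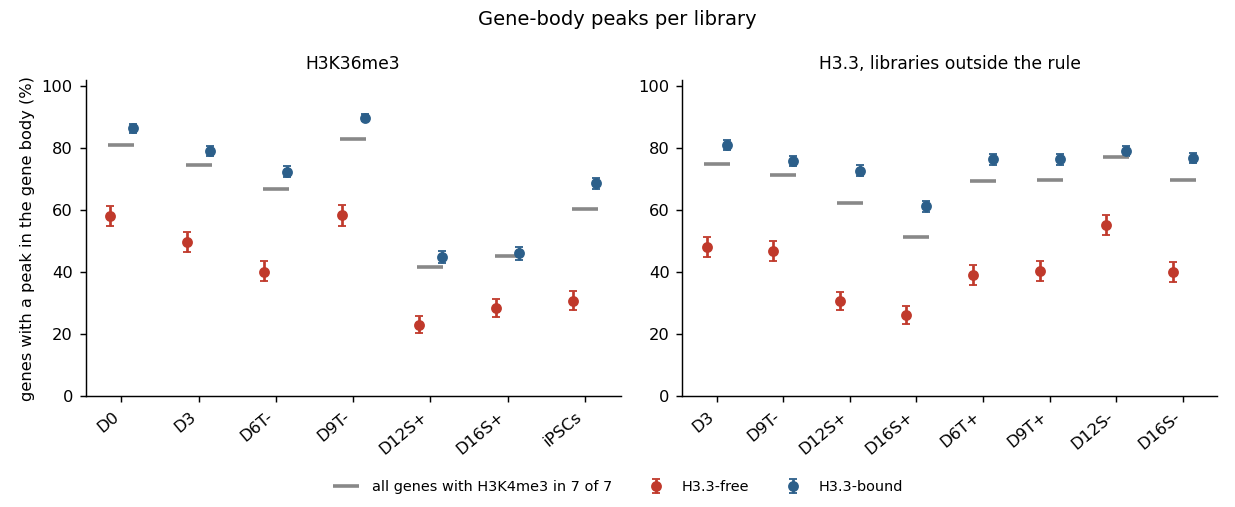
Share of genes, in percent, with an H3K36me3 peak (left, 7 libraries) or an H3.3 peak (right, 8 libraries outside the rule) in the gene body. Red points are 892 H3.3-free genes, blue points 2500 H3.3-bound genes, with 95% Wilson intervals of counting error, and grey dashes all 9472 genes with H3K4me3 in all 7 libraries and a body. Red lies under blue in every library, by 17.7 to 37.8 points for H3K36me3 and by 23.9 to 41.9 points for H3.3.

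H3.3-free genes were divided among themselves by H3K36me3. In 274 of 892 (30.7%, 95% Wilson interval 27.8% to 33.8%) no library had H3K36me3 in the body, against 158 of 2500 (6.32%, 5.43% to 7.34%) H3.3-bound genes and 10.9% of all genes. In 113 (12.7%, 10.6% to 15.0%) all 7 libraries had it, against 765 (30.6%, 28.8% to 32.4%) and 27.7%. Those with the mark in all 7 had a median lowest H3K4me3 score of 26.9, and those without it 9.80. Of the 518 H3.3-free genes with H3K36me3 in D0, 246 (47.5%, 43.2% to 51.8%) also had it in iPSCs. For H3.3-bound genes this was 1627 of 2157 (75.4%, 73.6% to 77.2%), and for all genes 70.3%. The H3K36me3 library of iPSCs had 26697 peaks and 2.88% of tags in peaks, against 57288 and 31.3% in D0. Where D0 had a body peak, the median score per kb was 6.18 in H3.3-free and 10.9 in H3.3-bound genes. The part of these in the shares kept in iPSCs was not tested. H3K36me3 in iPSCs and not in D0 was found in 30 of 892 H3.3-free, 91 of 2500 H3.3-bound and 332 of all 9472 genes. These counts are over all genes with a body, of which 518, 2157 and 7674 already had the mark in D0. Only genes without it in D0 could gain it, and they were a smaller part of the H3.3-bound genes. Equal shares over all genes therefore do not mean equal gain.

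The H3.3-free genes with the most H3K36me3, each marked in 7 of 7 libraries, included Gtf3c1, Nemf, Usp40, Exoc4 and Sfswap. Gtf3c1 codes for a subunit of TFIIIC, a factor of RNA polymerase III, and had summed H3K36me3 scores of 1501 in D0, 971 by D3 and 778 by D6T-, then 2626 for D9T-, 71.6 for D12S+ and 153 for D16S+, with 171 in iPSCs. Exoc4, an exocyst subunit gene of 725 kb on chromosome 6, had no promoter H3.3 in any of the 16 libraries. Its body H3.3 was called in all 16, from 17.5 in MEF to 990 in D12S-. Nemf, a ribosome quality control gene, had body H3.3 scores from 17.9 (D16S+) to 234 (D12S-) in the 8 libraries outside the rule, and promoter H3.3 in D4 alone (14.7). Usp40, a deubiquitinase gene, was marked by H3K36me3 throughout although its lowest H3K4me3 score was 10.1, the weakest of these genes.

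Gene-body H3.3 was counted without peaks that touched the promoter window, which the rule had fixed. H3.3-free genes again had it less often. The share was 48.2% in D3 (81.0% of H3.3-bound and 74.8% of all genes), 46.7% in D9T- (75.8% and 71.3%), 30.7% in D12S+ (72.6% and 62.4%) and 26.1% in D16S+ (61.2% and 51.2%). It was 39.1% in D6T+ (76.4% and 69.3%), 40.5% in D9T+ (76.4% and 69.8%), 55.2% in D12S- (79.0% and 77.1%) and 40.1% in D16S- (76.8% and 69.7%). The mean difference was -34.1 points, from -41.9 in D12S+ (-45.3 to -38.3) to -23.9 in D12S- (-27.5 to -20.3), and negative in 8 of 8 libraries (exact permutation test, two-sided, p = 0.00781; 0.0156 after Benjamini-Hochberg adjustment). Within the middle quartile groups of H3K4me3 score it was -21.6 points (exact permutation test, p = 0.00781), so it was smaller there but, unlike the H3K36me3 difference, kept its sign in all 8 libraries, from -32.2 to -14.7 points. With H3.3 peaks from 4-fold over input it was -11.6 points, and as a share of covered base pairs -13.5 points. In the libraries of the rule, given without a test, the shares were 52.1% and 79.7% in D0, 52.1% and 79.6% in D6T-, 41.3% and 79.2% in iPSCs, and 36.4% and 74.6% in ESD3.

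Where a body peak was present it covered less of the gene. In D3 the median cover was 3.67% of the body in H3.3-free and 18.3% in H3.3-bound genes with a peak, and in D16S+ 1.80% and 5.84%. In the transdifferentiation libraries the shares of genes with body H3.3 were 294 of 892 and 1649 of 2500 in MEF, 23.9% and 52.7% in cKit+, and 25.4% and 46.4% in cKit-. In D4 they were 64.8% and 70.7%, with the long promoter peaks of that library left out of the body. Of the 892 H3.3-free genes, 239 (26.8%) had body H3.3 in none of the 8 libraries and 91 (10.2%) in all 8, against 4.04% and 41.7% of H3.3-bound and 7.96% and 33.5% of all genes.

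Gene-body H3.3 and H3K36me3 went together among H3.3-free genes, as they did among H3.3-bound genes. Averaged over the 8 libraries, body H3.3 was found in 20.2% of the 274 genes without H3K36me3 (15.7% to 31.0% by library), in an intermediate share (26.3% to 61.6%) of the 505 with it in 1 to 6 libraries and in 72.3% of the 113 with it in all 7. Promoter H3.3 in the same libraries was 4.33%, 10.6% and 11.7%. The 3 groups had median bodies of 16.3, 30.2 and 29.6 kb and median lowest H3K4me3 scores of 9.80, 15.8 and 26.9. For H3.3-bound genes grouped in the same way, the mean shares with body H3.3 were 41.9%, 70.4% and 91.0%. These are shares over the same genes and libraries and are given as a description. Neither gene-body mark was called in any of the 8 and 7 libraries in 138 H3.3-free genes (15.5%), in 25 H3.3-bound genes (1.00%) and in 323 of all 9472 genes (3.41%).

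**Figure D4:**
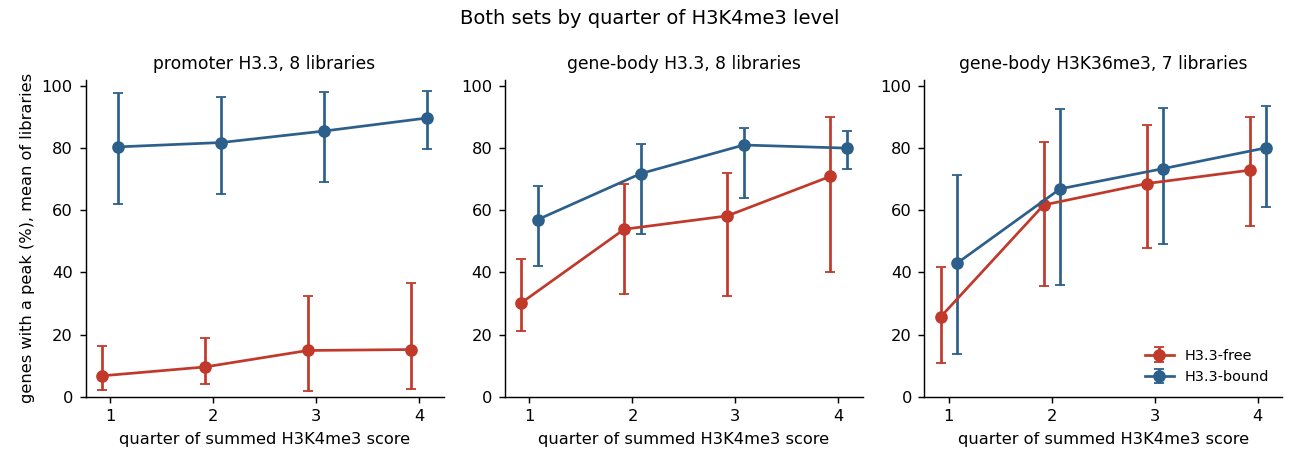
Share of genes, in percent, with promoter H3.3, gene-body H3.3 (8 libraries outside the rule) or gene-body H3K36me3 (7 libraries), by quartile group of the H3K4me3 score summed over 7 libraries, from lowest (1) to highest (4). Points are means over libraries and bars run from the lowest to the highest library. The classes stay far apart for promoter H3.3 in every group, and for H3K36me3 they come close from group 2 on, at 61.7% to 72.9% for H3.3-free and 66.9% to 80.1% for H3.3-bound genes.

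H3.3-free genes were longer, with a median of 25.4 kb (interquartile range 9.74 to 67.5 kb) against 17.4 kb (6.78 to 42.6 kb) for H3.3-bound and 22.4 kb for all genes. In bodies of 1 to 5 kb the mean H3K36me3 share was 13.5% of 122 H3.3-free and 44.9% of 437 H3.3-bound genes, in bodies of 10 to 20 kb 51.0% of 157 and 72.2% of 501, and in bodies over 50 kb 40.4% of 281 and 83.7% of 546. The matching values for body H3.3 were 13.2% and 44.3%, 38.6% and 77.3%, and 56.4% and 92.9%. The H3K36me3 share of H3.3-free genes thus did not go on growing with length, whereas that of H3.3-bound genes did.

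Among the gene lists of at least 15 genes, regulators of body plan and organ development had the highest H3.3-free share. Of 75 homeobox, Pax, Sox, Fox, T-box and Gata genes with H3K4me3 in all 7 libraries, 21 were H3.3-free (28.0%, 95% Wilson interval 19.1% to 39.0%) and 9 H3.3-bound (12.0%), beside 9.32% and 26.8% of all genes. They were Foxf1a, Foxi3, Foxj1, Foxn4, Foxq1, Gata4, Hoxa11, Hoxb7, Hoxb8, Hoxd1, Hoxd9, Lhx2, Lhx6, Lhx8, Nkx1-1, Nkx2-1, Nkx2-2, Nkx2-4, Pax7, Sox14 and Sox17. None of the 19 with a body had H3K36me3 in any library, and neither did 4 of the 9 H3.3-bound regulators and 26 of the other 42 with a body, beside 10.9% of all genes. The median length was 4.97 kb for the H3.3-free, 12.9 kb for the H3.3-bound and 5.80 kb for the other regulators, against 22.4 kb for all genes. H3K36me3 was called less often in short bodies, and the part of length in these counts was not tested. Genes of this kind are known for holding activating and Polycomb marks together in stem cells; no Polycomb mark was measured here. Their promoters were weak, with a median lowest H3K4me3 score of 10.4 (6.96 to 50.3) among the 19. With H3K4me3 peaks of at least the library's median score, 42 of these regulators remained and 5 were H3.3-free (11.9%, beside 6.35% of all genes), the lowest share over the alternatives. The highest was 54.7%, with equal numbers of top H3.3 peaks, where 24.5% of all genes were H3.3-free.

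Foxq1, a forkhead factor, had the highest lowest H3K4me3 score of the 21, with values of 227 in D0, 192 by D3 and 245 by D6T-, then 136 for D9T-, 52.5 for D12S+ and 50.3 for D16S+, with 66.0 in iPSCs. No H3K36me3 and no gene-body H3.3 was called in any library, and promoter H3.3 was called in MEF (6.53) and D4 (41.7) alone. Hoxa11, which patterns limbs and the reproductive tract, had H3K4me3 of 1551 in D0 and between 30.0 and 514 in the other libraries. Kit, the receptor by which the cKit fractions were sorted, belonged to the hematopoietic markers. Its promoter had H3K4me3 scores from 44.9 (D16S+) to 103 (D6T-) and no H3.3 in any of the 16 libraries, the cKit+ library included, where few promoters had a peak at all. Its body had H3.3 in D0 (6.12), iPSCs (46.6), ESD3 (97.2) and D4 (43.0). Lmo2, a blood transcription cofactor that was also delivered as a transgene for transdifferentiation, had no H3K36me3 either.

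Other lists held members whose bodies were marked by H3K36me3. Mitochondrial ribosomal protein genes had 12 of 67 H3.3-free (17.9%, 10.6% to 28.7%) and all 12 had H3K36me3 in at least 4 of 7 libraries, with the highest lowest H3K4me3 scores in Mrpl50 and Mrpl32 (53.4 and 53.1). Mrpl32 starts 217 bp from Psma2, a proteasome subunit gene that was a member as well. DNA replication and repair genes had 8 of 65 (12.3%, 6.37% to 22.5%), led by Orc3 and by Xrcc4, which joins broken DNA ends, and 7 of the 8 had H3K36me3 in at least 4 libraries. Zinc-finger protein genes had 27 of 235 (11.5%, 8.02% to 16.2%), with the highest lowest H3K4me3 scores in Zfp189 and Zfp952, and 62 H3.3-bound (26.4%). The intervals of both lists include the 9.32% of all genes. Of these 27, 22 had H3K36me3 in at least 4 libraries, yet 12 had body H3.3 in none of the 8. For comparison, 42.6% of all genes had H3K36me3 in 4 to 6 libraries and 27.7% in all 7. Among all H3.3-free genes these shares were 28.6% and 12.7%. Body H3.3 in none of the 8 was found in 7.96% of all genes and 26.8% of H3.3-free genes. Zfp952, marked by H3K36me3 in all 7 libraries with 305 in D0 and 6.80 in iPSCs, had no body H3.3 in the 8 libraries outside the rule. Zinc-finger genes include many similar copies, and reads with several matches were removed by the authors; the part of this in their peaks was not tested.

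Most further lists were near the 9.32% of all genes. RNA polymerase and Mediator genes had 5 of 45 H3.3-free (11.1%, with the highest lowest H3K4me3 score in Polr2d and Med23), oxidative phosphorylation genes 5 of 65 (7.69%, Ndufa9 and Ndufa8), proteasome genes 4 of 41 (9.76%, Psma1 and Psma2), and tRNA synthetase genes 3 of 28 (10.7%, Rars2 and Fars2). Translation initiation factors had 3 of 45 (6.67%, Eif3e and Eif3f), spliceosome genes 2 of 46 (4.35%, Snrpc and Prpf18), ubiquitin-conjugating enzymes 2 of 25 (Ube2e1 and Ube2a), mitochondrial carriers 2 of 25 (Slc25a26 and Slc25a27), and chaperones 1 of 48 (2.08%, Dnajc15). The small lists of collagens had 2 of 11 (Col14a1 and Col27a1, both with a lowest H3K4me3 score of 7.27), epithelial markers 2 of 14 (Ocln and Cldn6) and hematopoietic markers 2 of 6 (Kit and Lmo2).

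Ribosomal protein and replication-dependent histone genes held no H3.3-free gene. None of 75 ribosomal protein genes was H3.3-free, which allows a share of up to 4.00%, and 34 (45.3%) were H3.3-bound. None of 39 replication-dependent histone genes was H3.3-free (up to 7.69%) and 30 (76.9%) were H3.3-bound; these genes are near-identical copies in clusters. The same count of 0 was found for 22 cyclin and cyclin-dependent kinase genes, 15 housekeeping reference genes, 10 tubulin and actin genes, 9 pluripotency markers and 7 fibroblast markers (limits of 13.6% for the cyclin list and 30.0% to 42.9% for the last 3 lists). Ribosomal protein promoters had a median lowest H3K4me3 score of 69.9, but the histone genes had 16.1, so a low H3K4me3 score did not go with an H3.3-free promoter in every list.

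**Figure D5:**
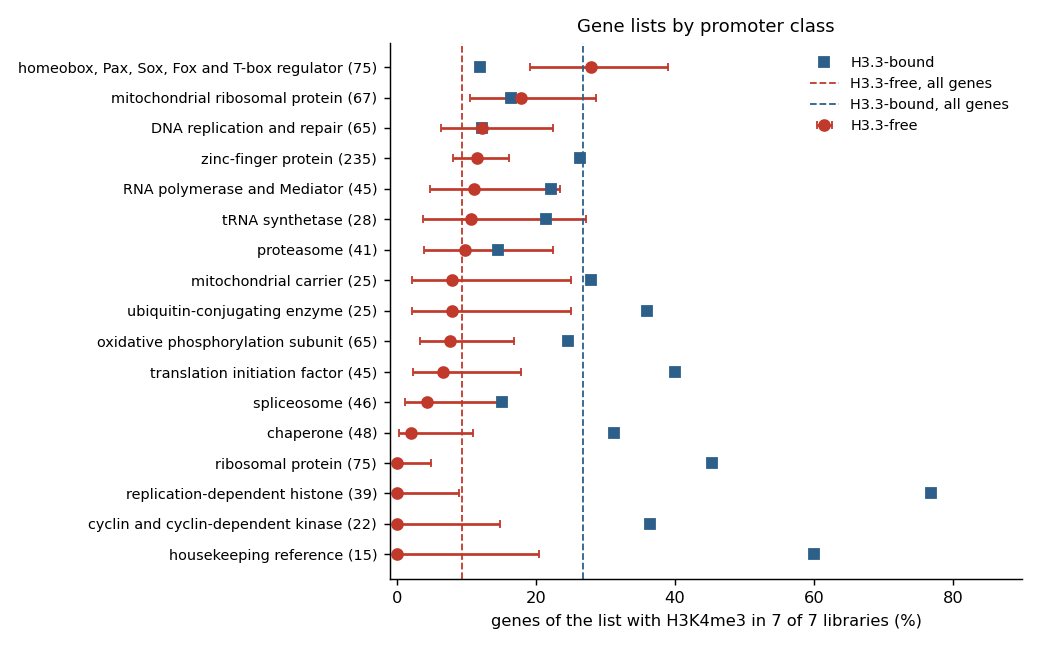
Share of genes of each list, in percent, that were H3.3-free (red points, 95% Wilson intervals) or H3.3-bound (blue squares), among genes with H3K4me3 in all 7 libraries, whose number is given in brackets; lists of at least 15 such genes are drawn. Dashed lines mark 9.32% and 26.8% of all genes. Developmental regulators have the highest H3.3-free share (28.0%), and ribosomal protein, histone, cyclin and housekeeping genes have none.

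The X chromosome held 132 of the 919 H3.3-free genes (14.4%) and 3 of the 2646 H3.3-bound genes. Of 240 X-linked genes with H3K4me3 in all 7 libraries, 55.0% (48.7% to 61.2%) were H3.3-free, against 8.15% (7.62% to 8.71%) of 9622 autosomal genes and between 4.88% and 12.4% on single autosomes. All 3 such genes on the Y chromosome, Ddx3y, Eif2s3y and Uty, named here after their values were seen, were H3.3-free. In the 8 libraries outside the rule, 6.25% (D3) to 43.8% (D12S-) of X-linked genes had promoter H3.3, against 40.8% (D16S+) to 76.3% (D12S-) of autosomal genes. H3K4me3 was lower on the X in 7 of 7 libraries, with medians such as 115 against 197 on autosomes in D0 and 92.1 against 156 in D9T-, and the input level under the H3K4me3 peaks of X-linked promoters was 0.546 to 0.686 of that on autosomes. The part of the lower input and H3K4me3 in the X-linked share was not tested. Over the other settings for choosing members the X-linked share was 32.9% to 83.3%. The lowest was with no H3.3 in any of the 12 reprogramming libraries, where 5.84% of all genes were H3.3-free. The highest was with equal numbers of top H3.3 peaks, where 24.5% of all genes were. On autosomes alone the differences between H3.3-free and H3.3-bound genes were -76.7 points for promoter H3.3, -28.8 for H3K36me3 and -30.8 for gene-body H3.3.

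Head-to-head starts, such as those shown for Orc3 and Rars2, were found at shares with overlapping intervals in both classes. Among H3.3-free genes 113 (12.3%, 10.3% to 14.6%) had the start of another protein-coding gene on the opposite strand within 1 kb upstream, at a median of 112 bp, against 12.9% (11.7% to 14.2%) of H3.3-bound and 15.3% of all genes. In 97 of the 113 the partner was H3.3-free as well, forming 49 pairs; since both starts of a pair share most of their window, this follows from the rule. The pairs mean that the 919 genes are fewer than 919 separate regions.

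The promoter letters, from 250 bases before to 50 after the TSS, differed little. The median GC share was 59.3% (interquartile range 53.3% to 65.7%) in H3.3-free, 62.7% (57.0% to 69.3%) in H3.3-bound and 62.3% in all genes with H3K4me3. The CpG ratio, observed over expected from the C and G content, was 0.724, 0.802 and 0.794, and 0.549 over all 46015 TSSs. In the lowest quartile group of CpG ratio 13.2% of genes were H3.3-free and in the highest 5.32%, whereas the H3.3-bound share stayed between 26.1% and 27.4%. H3.3-free promoters thus belonged with the CpG-rich promoters, at their lower end.

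Motifs were searched on both strands as exact strings, none of which contains another. The GC box GGGCGG was found in 60.8% (57.6% to 63.9%) of H3.3-free, 72.5% (70.8% to 74.2%) of H3.3-bound and 44.3% of all TSSs, and the ETS string CCGGAAG in 14.5%, 18.5% and 10.9%. The TATA string TATAAA was found in 8.05% (6.46% to 9.99%) of H3.3-free and 5.40% (4.61% to 6.33%) of H3.3-bound promoters and in 11.4% of all TSSs. Most TSSs lacked H3K4me3 in all 7 libraries. Among the 9865 genes with it, the shares were 68.9% for the GC box, 18.7% for the ETS string and 5.74% for the TATA string. Against these, H3.3-free promoters were lower for the GC box and the ETS string and higher for the TATA string. The intervals of both classes overlapped for CCAAT (38.4% and 37.0%, 35.7% of all TSSs), the NRF1 string GCGCATGC (5.44% and 5.86%, 3.24%), the YY1 string AAGATGGC (5.01% and 4.54%, 3.38%), the CRE TGACGTCA (2.61% and 3.59%, 2.13%), the E-box CACGTG (8.05% and 10.2%, 7.67%) and the AP-1 string TGACTCA (2.39% and 2.99%, 4.27%). A match describes the letters only and does not show a bound factor.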

How the data were processed

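ChIP-Seq was done in mouse cells for 46 samples, of which 30 had deposited peak lists and 16 were inputs that enter only through the peaks. Per the study's methods the authors mapped reads to mm9 with STAR, removed reads with more than 1 locus and called peaks per library with HOMER findPeaks in histone style; tool versions are not stated. Peak scores are signal values that the authors deposited as tag counts per 10 M tags. The authors also deposited each peak's ratio to its input, the fold, which is at least 2 for H3.3 and 4 for the other marks. Each deposited p-value is the authors' own, unadjusted, from a Poisson model (at most 0.0001). Per the labels, each population had 1 library per mark. The 30 libraries shared 16 inputs.

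Distinct protein-coding TSSs came from GENCODE vM1 (NCBIM37, the same build as mm9), and a peak counted with at least 1 bp of overlap. A gene was given the TSS with the highest lowest H3K4me3 score of its class. The score at a promoter or body is the sum over whole peaks that touch it. Bodies ran from 1 kb after the TSS to the transcript end. Shares have 95% Wilson intervals and differences Newcombe intervals; library differences were tested by exact sign-flip permutation, 4 tests in all, with Python 3.11.15, scipy 1.17.1 and pandas 2.3.3. Peak overlap and the tests were tested on simulated data. A share with a count of 0 has a limit of 3 counts. Input tags under a peak are its score divided by its fold. Sequences came from the same build. Genes were named by fixed rules: the 10 H3.3-free genes with the highest lowest H3K4me3 score, 6 by H3K36me3, 6 by promoter H3.3 outside the rule, 2 per list and 3 each of the H3.3-bound and of the TSSs just outside. One gene that these rules name is not reported here. The members and the 23 gene lists were chosen with earlier results of these data known. Alternatives varied the window, peak threshold, TSS choice, chromosomes and libraries.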

Additional observations from a re-analysis of the deposited data

How the results depend on the processing

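Membership depends strongly on thresholds. Against 1978 TSSs, there were 3084 with a window of 500 bp, 5024 with equal numbers of top H3.3 peaks (34062 per library), 5960 with H3.3 from 4-fold over input, 1142 with H3K4me3 at or above each library's median score, 3597 without iPSCs in the rule and 1213 with no H3.3 in all 12 reprogramming libraries. Keeping the 5′-most TSS of each gene left 1003, by construction at most 1 per gene. The other 5 alternatives gave 1474 to 2671. Differences kept their direction and their side of the threshold in 16 of 17 alternatives for H3K36me3 (-36.5 to -6.63 points), 12 of 12 for promoter H3.3 (-79.2 to -45.5) and 15 of 15 for gene-body H3.3 (-37.6 to -11.6). Without D6T- and D12S+ the H3K36me3 difference was -28.9 points (exact permutation test, p = 0.0625, the smallest for 5 libraries). In transdifferentiation, where no p under 0.125 was possible, 12 alternatives gave -47.6 to -27.9 points. The middle H3K4me3 groups for promoter H3.3 and the omission of D4 were added after seeing the data. Libraries of different groups could not be paired, because there were no replicate libraries and the labels give no replicate numbers. The tests compare both gene classes within each library and are paired in that way.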
